A study of Mus musculus with 24 samples.

Results

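Clustered protocadherins were measured in the mouse olfactory epithelium as every gene whose symbol places it in the alpha, beta or gamma protocadherin cluster. Of the 57010 gene IDs in the deposited tables, 58 met this rule: 14 alpha, 22 beta and 22 gamma genes. The alpha cluster held 12 variable genes, the gamma cluster held 12 genes of type A and 7 of type B, and 5 genes were C-type (Pcdhac1, Pcdhac2, Pcdhgc3, Pcdhgc4 and Pcdhgc5). The mice were wild-type C57BL/6J males, 8 weeks old, kept 4 h without odor and then 90 min with a filter paper that was empty or carried 10 µL of odorant. One table, called AD here, held its own no-odor control (AD control) and mice given acetophenone, decanal or the 1:1 mixture of both (AD mixture). The other, called OC, held its own no-odor control (OC control) and mice given octanal, cis-3-hexenol or their 1:1 mixture (OC mixture). Each of the 8 groups had 3 biological replicates, each sequenced as 1 library of poly(A) RNA from a detergent-treated, spin-cleared homogenate of the tissue.

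Clustered protocadherins are adhesion proteins of the cadherin family that bind copies of the same isoform on a facing membrane. An alpha or gamma transcript joins a variable first exon, which has its own promoter, to constant exons shared by its whole cluster, whereas a beta gene is a single exon. Each olfactory sensory neuron expresses its own small set of variable isoforms, chosen through DNA methylation and looping by CTCF and cohesin, and the set is known for its role in how sensory axons recognise themselves and spread in the olfactory bulb. The C-type promoters are chosen in another way and are used by many neurons alike.

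The structure of the genes sets how separately they can be counted. In the GENCODE M21 annotation of build GRCm38, all 14 alpha genes ended in the same 3 exons of 59, 89 and 2712 bases. All 22 gamma genes shared exons of 59 and 89 bases. Of them 17 shared a last exon of 1971 bases and 4 shared one of 1968 bases, while Pcdhgb8 ended in one of 227 bases. The median share of 100-base windows of a gene's longest coding transcript that also occurred in another of the 58 genes was 55.1% in the alpha cluster and 44.1% in the gamma cluster, against 0.207% in the beta cluster. Of the deposited values, 100% of those of alpha genes and 99.6% (AD) or 98.5% (OC) of those of gamma genes were not whole, against 10.98% and 10.61% of those of beta genes. Values of single alpha and gamma genes therefore rest on an estimate that divides reads in the shared exons. Most beta genes rest on reads of their own. The beta values that were not whole belonged to Pcdhb12 (41.7% in AD, 83.3% in OC), Pcdhb21 (100% and 75%) and Pcdhb22 (100% and 75%). The symbol Pcdha11 belongs to 2 IDs, of which ENSMUSG00000007440 is named Pcdha10 in RefSeq for build GRCm38.p6, so these genes are given by ID.

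Libraries held 20604861 to 24802512 counts in the AD table and 19003768 to 24531349 in the OC table, and the 58 genes together held 5090 to 8161 counts per library. They took 0.0325% ± 0.0007 of all counts (SD, n = 3) in AD control and 0.0242% ± 0.0022 in OC control. Levels are given as CPM, which are counts scaled to a common library size after a correction for library composition, and the tables were scaled separately, so a level in one table set beside a level in the other is a description. After the low-count filter, 56 of the 58 genes were tested in the AD table and 53 in the OC table. Pcdhb2 and Pcdhb13 passed in neither, and Pcdhb10, Pcdhgb8 and Pcdhgc5 passed in the AD table alone. Markers of mature olfactory sensory neurons summed to between 18266 and 24536 CPM over the groups.

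Per transcript length and averaged over both controls, the highest levels of the 58 genes were those of Pcdhgc4 (ENSMUSG00000023036), a C-type gamma gene, at 10.6 CPM per kilobase and of Pcdhb1 (ENSMUSG00000051663), the first gene of the beta cluster, at 7.13. Their order turned between the controls: Pcdhb1 was at 9.88 and Pcdhgc4 at 9.38 in AD control, against 4.38 and 11.8 in OC control. In the same average the C-type genes Pcdhgc3 (ENSMUSG00000102918) and Pcdhac2 (ENSMUSG00000102697) were at 4.45 and 3.53. C-type genes did not all stand high: Pcdhac1 was at 0.77 and Pcdhgc5 at 0.090, the lowest of the gamma cluster.

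The clusters differed in how evenly their genes were used. The 12 variable alpha genes had a median of 1.13 CPM per kilobase, with the highest at 1.42 (Pcdha2) and 1.40 (Pcdha12), and Pcdha8 the lowest at 0.242. Pcdha11 (ENSMUSG00000102206) at 0.549 and Pcdha5 at 0.710 were the next lowest of that cluster. Beta genes ran from 7.13 down to 0.0364 with a median of 0.381, a wider range than that of the variable alpha genes. Pcdhb9 (2.74) and Pcdhb17 (2.05) came after Pcdhb1, while Pcdhb15 (0.140), Pcdhb2 (0.0665) and Pcdhb13 (0.0364) were lowest. Type A gamma genes had a median of 0.343 and type B genes one of 0.623, with Pcdhgb6 the highest of both at 1.22. Pcdhga9 (0.110) and Pcdhgb8 (0.124) were the lowest of the gamma cluster after Pcdhgc5.

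**Figure D1:**
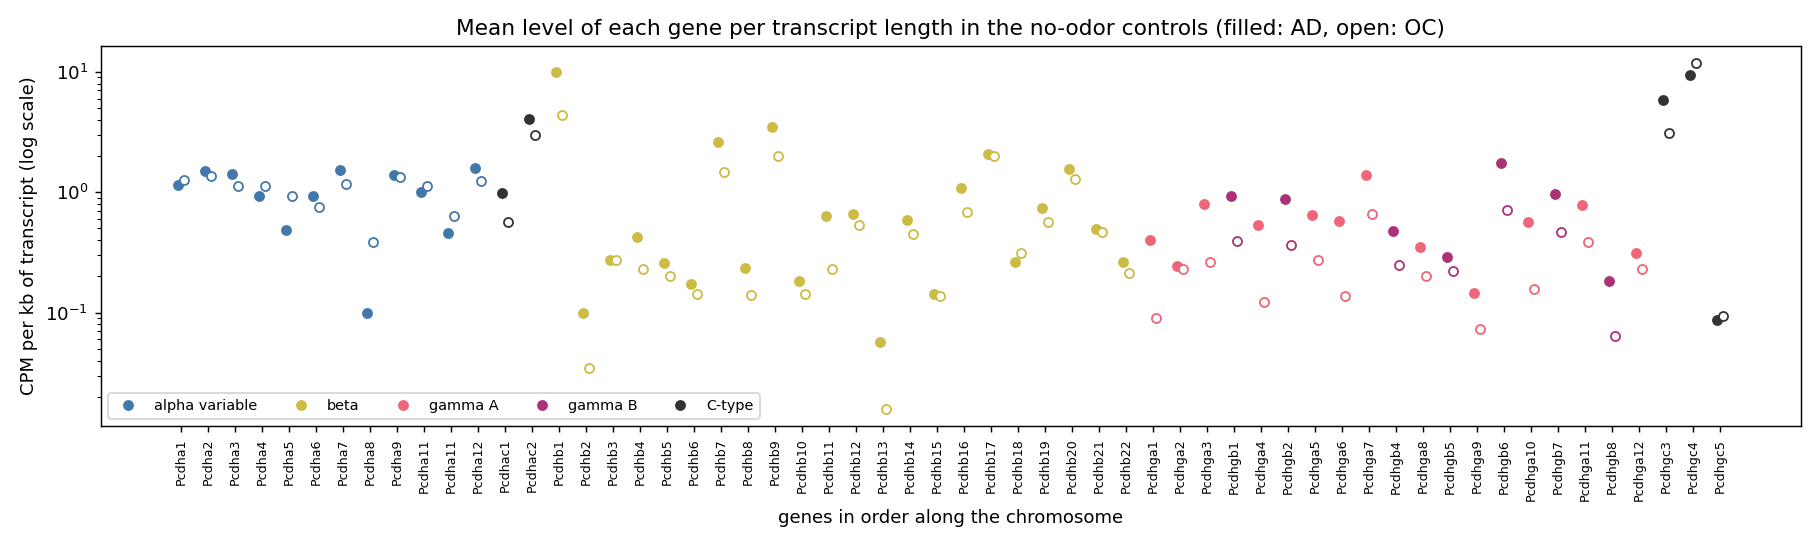
Mean level of each of the 58 genes in the no-odor controls, in CPM per kilobase of the longest coding transcript on a log scale, in the order of the genes along the chromosome. Filled points are AD control and open points OC control (3 libraries each); Pcdha8 is the lowest alpha gene, and all 19 gamma A and B genes lie lower in OC control than in AD control.

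Spread between replicates differed by kind of gene, and so did counts. The median of mean counts was 44.1 (AD) and 28.1 (OC) for type A gamma genes, and 491 and 408 for C-type genes. Each kind is set beside all genes within its range of counts, and counts inside the range were not matched. The median biological coefficient of variation of type A gamma genes was 28.4% in the AD table and 27.5% in the OC table, against 18.2% and 20.9% for all genes in the same range of counts. It was 21.5% and 24.5% for type B genes (against 19% and 17.5%), 19.8% and 20% for variable alpha genes (against 16.7% in both), and 21.4% and 15.7% for beta genes (against 14.6% and 16.2%). For C-type genes it was 9.8% and 11%, against 11% and 9.3%. After group means were removed, the median Pearson r between pairs of genes over the 24 libraries was 0.048 within the alpha cluster, 0.004 within the beta cluster and 0.051 within the gamma cluster, as a description over libraries that share their depth and scaling.

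Acetophenone, an aromatic ketone, was compared with AD control. No clustered protocadherin was called: with edgeR's quasi-likelihood test and Benjamini-Hochberg adjustment, 0 of 56 genes passed an adjusted p of 0.05, on a background of 0.00512% of all 19525 genes tested. DESeq2 also called 0, beside 30 of all 19519 genes. An unadjusted p under 0.05 was found for 3 of the 56, against 6.59% of all genes. Those were Pcdhga4 (log2 fold change -1.1 ± 0.34 (SE), adjusted p = 0.526), Pcdhb9 (-0.34 ± 0.15, adjusted p = 0.729) and Pcdha2 (-0.32 ± 0.15, adjusted p = 0.741). Where counts were high the 95% confidence interval was narrow. It ran from -0.24 to 0.36 for Pcdhb1, from -0.19 to 0.22 for Pcdhgc3, from -0.26 to 0.23 for Pcdhac2 and from -0.22 to 0.16 for Pcdhgc4, and for Pcdhac1 from -0.86 to 0.04. The median log2 fold change of the 56 genes was -0.13, beside 0.01 over all genes. Groups did not overlap for 3 genes with acetophenone the higher and 2 with it the lower, beside 8.20% and 6.34% of all genes. Without the low-count filter 1 of the 58 was called, beside 300 of all 33134 genes.

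Decanal, a straight-chain aldehyde, was compared with the same control, and here the C-type genes Pcdhgc3 and Pcdhac2 and the beta gene Pcdhb1 were lower, the C-type gene Pcdhgc4 was higher, and 11 of the 12 variable alpha genes were not called. Of the 56 genes, 7 were called (12.5%, background 23.9%): 6 lower (background 12.5%) and 1 higher (background 11.4%). The share called was below that of all genes. The lower genes were Pcdhgc3, Pcdhac2, Pcdhb1, Pcdhga3, Pcdhga10 and Pcdha6, and Pcdhgc4 was the 1 higher gene. The median log2 fold change was -0.21 over the 56 genes, -0.40 over the gamma cluster and 0.04 over the variable alpha genes, beside 0.01 over all genes. Over all genes the fold change with decanal fell with transcript length (Spearman r = -0.34). The median length was 5350 bases in the alpha cluster, 3714 in the beta cluster and 4721.5 in the gamma cluster. Over all 52029 gene IDs with a length, tested or not, it was 1256. With offsets for length and GC content the median of the 56 genes was -0.13. Groups did not overlap for 11 genes with decanal the lower and 2 with it the higher, beside 20.1% and 20.7% of all genes.

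Pcdhgc3, a C-type gamma isoform, was at 27.8, 26.3 and 27.3 CPM in AD control and at 16.7, 18.8 and 15.0 CPM with decanal. All decanal libraries lay below all control libraries, and the difference passed the test (log2 fold change -0.69 ± 0.10, adjusted p = 0.000174, edgeR). Pcdhac2, the last C-type gene of the alpha cluster, went from 26.2, 22.4 and 23.4 CPM to 16.8, 18.2 and 14.3 CPM. Its fall had a log2 fold change of -0.55 ± 0.12 (adjusted p = 0.00339), again without overlap. Pcdhac1, at 5.30 ± 0.95 CPM in AD control and 3.49 ± 0.48 with decanal (SD, n = 3), missed the threshold (-0.60 ± 0.21, adjusted p = 0.0529). Pcdhgc5, at 0.41 ± 0.45 and 0.68 ± 0.43, was not called either.

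Pcdhb1 was at 27.3, 23.0 and 26.4 CPM in AD control and at 16.8, 19.8 and 13.8 CPM with decanal, so its groups did not overlap either. Its log2 fold change was -0.61 ± 0.14 (adjusted p = 0.00674), and it was the 1 beta gene called among the 20 tested. Since none of its 100-base windows is shared with another of the 58 genes, this value does not rest on reads divided among them. Without Pcdhb1, the summed level of the beta cluster was 67.6 ± 2.7 CPM in AD control and 62.0 ± 3.8 with decanal.

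Of the variable gamma genes, Pcdhga3 fell by 0.82 ± 0.21 on the log2 scale (adjusted p = 0.00918), from 4.00, 3.96 and 3.40 CPM to 2.63, 2.04 and 1.75 CPM. The calls of Pcdhgc3, Pcdhac2, Pcdhb1 and Pcdhga3 held in each of the 6 fits that left out a library. Pcdhga10 had -1.33 ± 0.37 (adjusted p = 0.0182), and its call was lost without AD control 1 (adjusted p = 0.0859) and without decanal 3 (0.0503). Pcdha6 had -0.54 ± 0.17 (adjusted p = 0.0359), lost without AD control 2 (0.0674), AD control 3 (0.146), decanal 2 (0.0617) or decanal 3 (0.0928), and with offsets for transcript length and GC content (0.0919). The sum of the 19 gamma A and B genes was 57.2 ± 0.3 CPM in AD control and 43.8 ± 7.1 with decanal, where library 3 was lowest at 35.7.

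Decanal was also set against acetophenone, with the same 3 decanal libraries and the same fit of all 12 libraries. In this comparison 7 of 56 genes were called (12.5%, background 27.0%), 5 lower (background 14.4%) and 2 higher (background 12.6%) with decanal. Pcdhgc3 (-0.70 ± 0.10, adjusted p = 0.000116), Pcdhb1 (-0.66 ± 0.14, adjusted p = 0.00316) and Pcdhac2 (-0.53 ± 0.12, adjusted p = 0.00356) were lower, and these calls held without any 1 library. Pcdhga3 (-0.72 ± 0.21, adjusted p = 0.0166) and Pcdhga10 (-1.20 ± 0.38, adjusted p = 0.0276) were lost without acetophenone 2 (0.0636 and 0.126) or decanal 3 (0.0671 and 0.0815). Pcdhgc4 was higher (0.30 ± 0.09, adjusted p = 0.0221), lost without acetophenone 2 (0.103), decanal 2 (0.0602) or decanal 3 (0.0869). Pcdha2 was higher as well (0.45 ± 0.15, adjusted p = 0.0325), a call that held without acetophenone 3 and was lost without any other 1 library (adjusted p from 0.0609 to 0.107). The number of the 56 genes called was 3 without acetophenone 2 and 4 without decanal 3. Over all genes those fits called 3993 and 4138, against 5279 with all 12 libraries.

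The AD mixture shares its control libraries with decanal, so their values are given side by side only. Of the 56 genes 6 were called, all lower (10.7%, background 22.3% in either direction, 11.6% lower and 10.6% higher). Groups did not overlap for 11 genes with the mixture the lower and 2 with it the higher, beside 18.0% and 18.6% of all genes. Pcdhgc3 stood at 18.99, 24.1 and 19.2 CPM, all below AD control, with a log2 fold change of -0.39 ± 0.10 (adjusted p = 0.00900) that held without any 1 library. Offsets for length and GC moved it to -0.28 (adjusted p = 0.0499), and with the replicate block added its call was lost (0.0579). Pcdhb1 stood at 15.1, 20.8 and 17.4 CPM (-0.53 ± 0.14, adjusted p = 0.0154), and its call was lost without AD control 1 (0.0617), AD control 3 (0.0524) or AD mixture 1 (0.0632). The other 4 calls, Pcdhgb7 (-0.70 ± 0.20), Pcdhgb2 (-1.08 ± 0.34), Pcdhga3 (-0.60 ± 0.20) and Pcdhac2 (-0.34 ± 0.12), had adjusted p of 0.0191, 0.0327, 0.0464 and 0.0475. Each was lost with offsets for length and GC (0.0571, 0.0564, 0.104 and 0.0961 in the same order) and without at least 3 of the 6 libraries, with adjusted p up to 0.0925, 0.147, 0.141 and 0.174. The number called fell to 2 without AD control 3, to 2 without AD mixture 1 and to 3 without AD mixture 3. Over all genes those fits called 3087, 3529 and 3664, against 4347 with all 12 libraries. The gamma A and B genes summed to 43.3 ± 4.3 CPM.

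**Figure D2:**
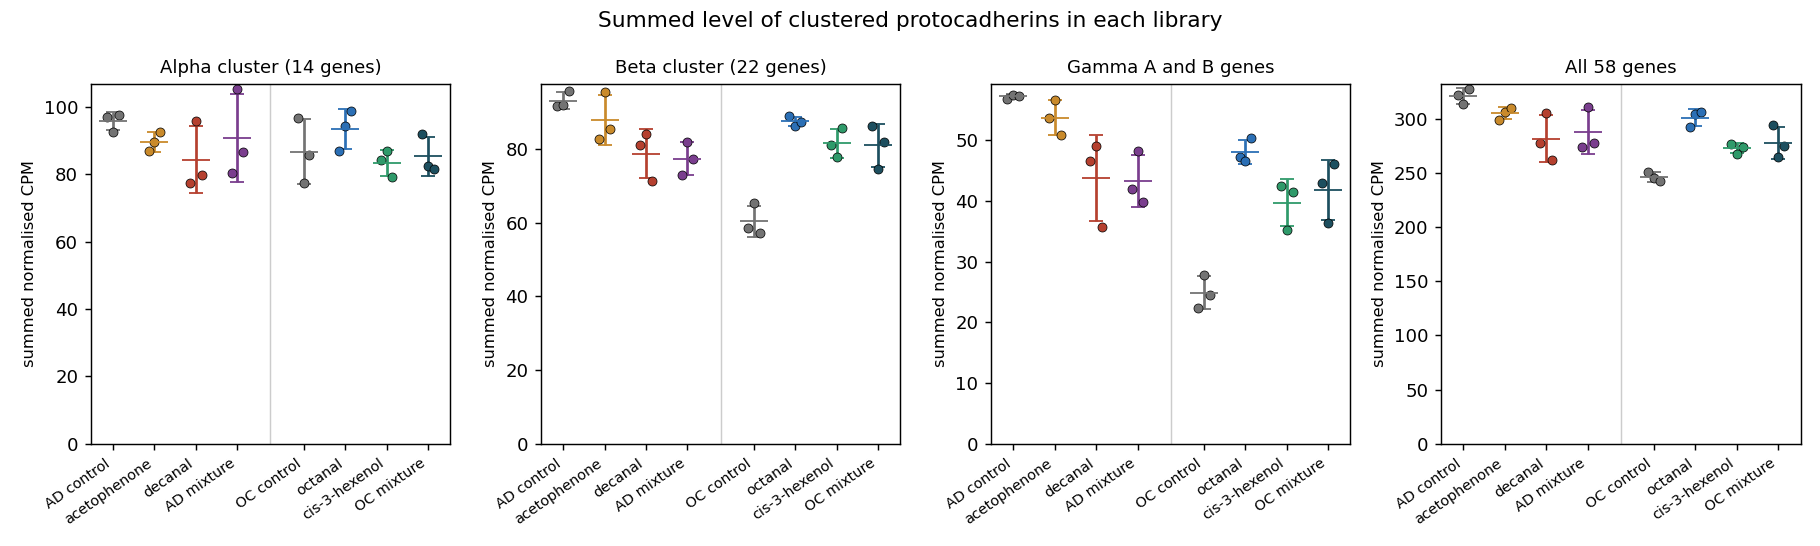
Summed level, in CPM, of the alpha cluster, the beta cluster, the gamma A and B genes and all 58 genes in each of the 24 libraries. Points are libraries, the bar is the group mean and the whiskers are 1 SD (n = 3); the vertical line separates the tables, which were scaled separately. OC control is lowest for the beta and the gamma A and B sums, and the alpha sums overlap between groups with their control, except with acetophenone. There the groups nearly touch, with acetophenone 3 at 92.67 CPM and AD control 2 at 92.70 CPM.

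Octanal, an aldehyde like decanal with a shorter chain, was compared with OC control, and the picture was one of higher beta and gamma genes. Of the 53 genes tested 19 were called (35.8%, background 29.4%): 17 higher (32.1%, background 14.4%) and 2 lower (background 15.0%). The calls were unevenly spread over the clusters: 1 of 14 alpha genes (lower), 6 of 19 beta genes (all higher) and 12 of 20 gamma genes, 11 of them higher. Type A gamma genes made up 8 of these 12, out of 12 tested, and their median log2 fold change was 1.04, beside 0.71 for type B, 0.27 for the beta genes, 0.02 for the variable alpha genes and -0.02 over all genes. Over all genes the fold change with octanal fell with GC content (Spearman r = -0.22). Offsets for length and GC moved the median of the 53 genes from 0.30 to 0.35. Groups did not overlap, with octanal the higher, for 20 of the 53 genes, where 19.7% of all genes showed this, and with octanal the lower for 2, where 20.6% did.

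Pcdhb1 was at 9.01, 15.3 and 9.66 CPM in OC control and at 24.4, 23.4 and 23.6 CPM with octanal. Every octanal library lay above every control library, and the log2 fold change was 1.07 ± 0.16 (adjusted p = 0.000280, edgeR). Pcdhb7 (0.67 ± 0.15, adjusted p = 0.00349), Pcdhb11 (1.24 ± 0.28, adjusted p = 0.00419) and Pcdhb9 (0.69 ± 0.16, adjusted p = 0.00569) rose as well. These 4 calls on single-exon genes held without any 1 library. The beta cluster as a whole summed to 60.4 ± 4.3 CPM in OC control and 87.6 ± 1.3 with octanal, and without Pcdhb1 to 49.1 ± 1.3 and 63.8 ± 0.7.

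Pcdhga6 was at 1.06, 0.49 and 0.40 CPM in OC control and at 3.19, 2.80 and 2.84 CPM with octanal. Its log2 fold change of 2.16 ± 0.39 (adjusted p = 0.000989) was the largest among the 53 genes, with no overlap between the groups. Pcdhga1, the first gene of the gamma cluster, went from 0.20, 0.41 and 0.65 CPM to 2.10, 2.00 and 1.51 CPM (2.12 ± 0.52, adjusted p = 0.00717). Pcdhga3 (1.39 ± 0.31, adjusted p = 0.00355) and Pcdhga11 (0.95 ± 0.24, adjusted p = 0.00885) were higher too, and these 4 calls held without any 1 library.

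The other higher genes, named because they were called, were Pcdhb20 (0.53 ± 0.14), Pcdhgb6 (0.84 ± 0.24), Pcdhga10 (1.34 ± 0.39), Pcdhga7 (0.99 ± 0.29), Pcdhgb1 (1.15 ± 0.34), Pcdhga4 (1.26 ± 0.38), Pcdhga5 (1.08 ± 0.36) and Pcdhb14 (0.58 ± 0.20), with adjusted p between 0.0115 and 0.0397. Pcdhb20 was lost without octanal 1 (adjusted p = 0.0505) and Pcdhgb6 without OC control 3 (0.0567), and each of the other 6 was lost without at least 3 of the 6 libraries. The 19 gamma A and B genes summed to 22.3, 27.8 and 24.6 CPM in OC control and to 47.2, 46.7 and 50.4 CPM with octanal, and for 16 of the 18 of them tested OC control had the lowest mean of the 4 groups of its table.

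The C-type genes went in both directions. Pcdhgc3 rose from 14.6, 15.9 and 13.1 CPM to 19.5, 21.8 and 20.4 CPM with octanal (0.50 ± 0.14, adjusted p = 0.0136), a call that held without any 1 library. Pcdhac2, at 17.6 ± 2.1 CPM in OC control and 21.8 ± 2.4 with octanal, and Pcdhac1, at 3.05 ± 1.73 and 3.72 ± 0.60, did not pass the test. Among the alpha genes the single call was Pcdha8, which was at 2.04, 0.90 and 3.22 CPM in OC control and at 0.32, 0.76 and 0.53 CPM with octanal. Its fold change of -1.91 ± 0.49 (adjusted p = 0.00911) was lost without OC control 3 (-1.44, adjusted p = 0.0525).

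**Figure D3:**
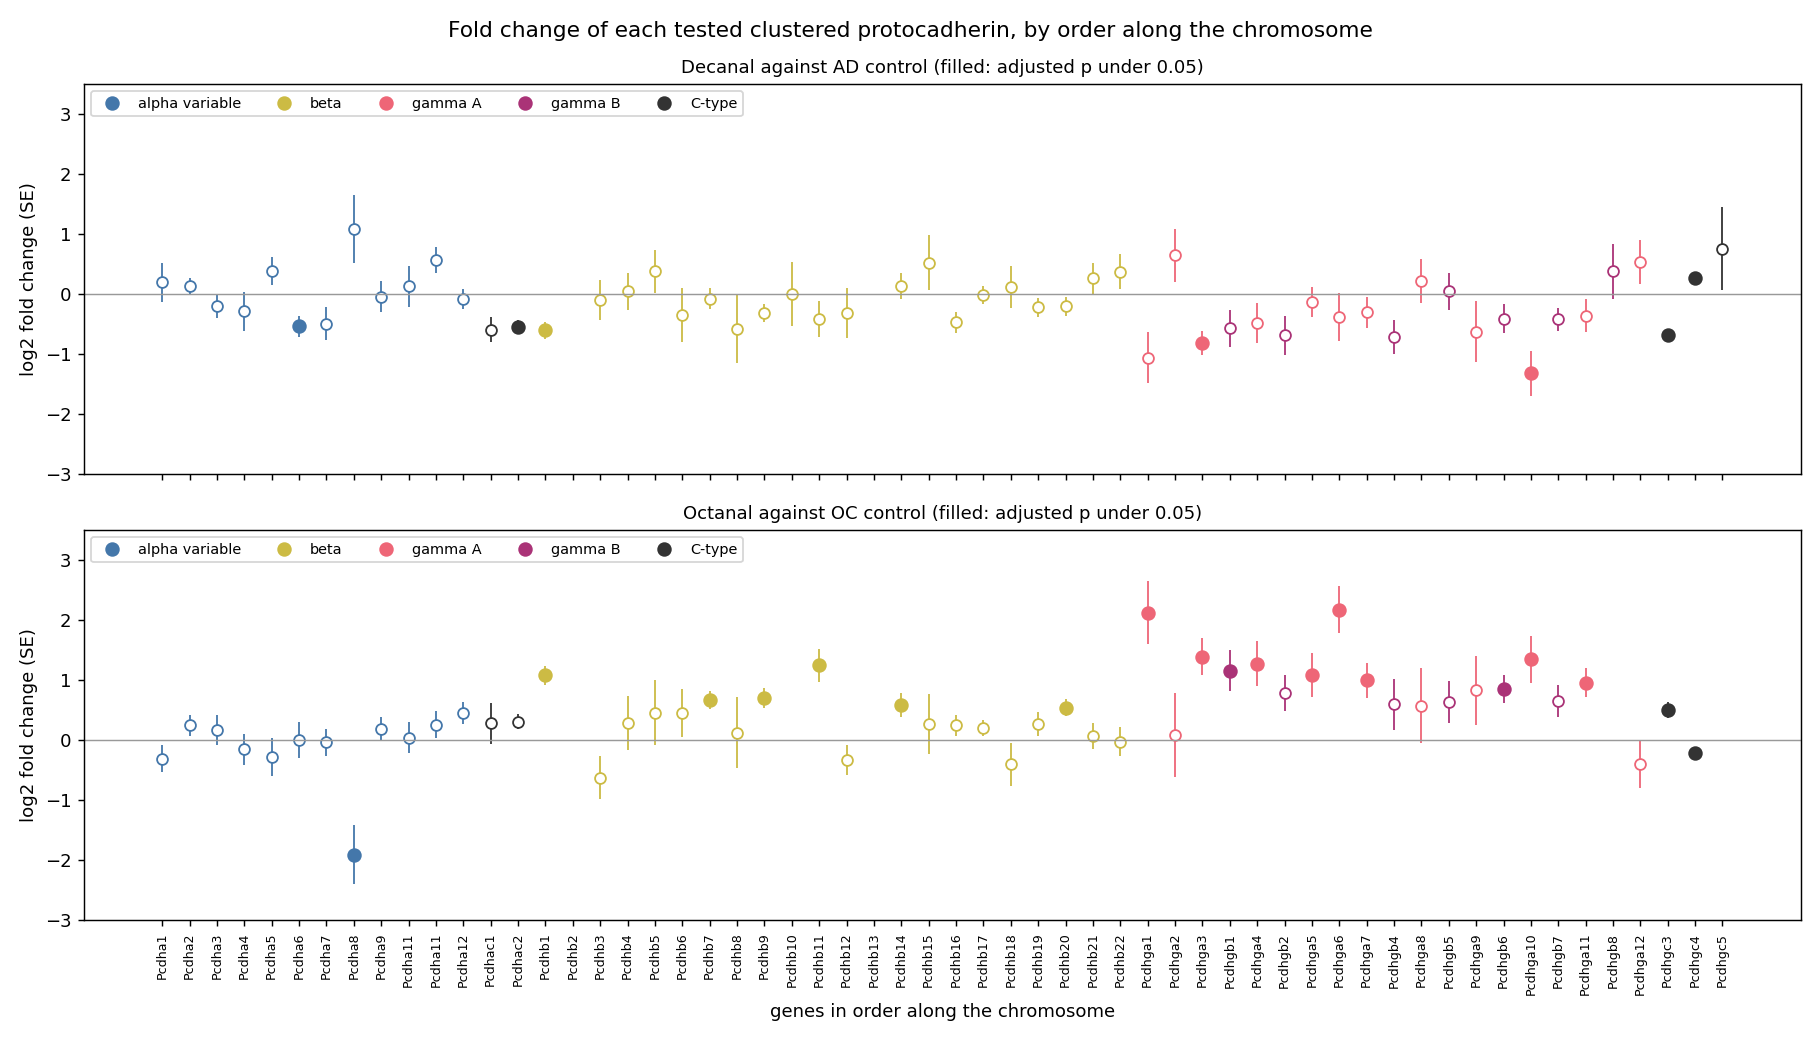
Log2 fold change with its SE for every tested gene in order along the chromosome, for decanal against AD control (upper panel) and octanal against OC control (lower panel). Filled points passed an adjusted p of 0.05; with octanal Pcdha8 is lowest, and 17 of the 18 gamma A and B genes lie above 0.

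Cis-3-hexenol, an unsaturated alcohol, shares its control with octanal and with the OC mixture. Of the 53 genes 8 were called (15.1%, background 12.2%), 7 of them higher (background 5.56%) and 1 lower (background 6.65%). Groups did not overlap for 13 genes with cis-3-hexenol the higher and 2 with it the lower, beside 15.1% and 15.5% of all genes. Pcdhb1 stood at 20.2, 16.5 and 20.3 CPM, above all control libraries, with a log2 fold change of 0.75 ± 0.16 (adjusted p = 0.00972), and its call was lost without cis-3-hexenol 3 (0.70, adjusted p = 0.0559). The other higher genes were Pcdhga3 (1.104 ± 0.31), Pcdhb11 (0.99 ± 0.29), Pcdhgb2 (1.01 ± 0.30), Pcdhga11 (0.82 ± 0.25), Pcdhga4 (1.25 ± 0.38) and Pcdhga6 (1.34 ± 0.41), with adjusted p between 0.0322 and 0.0432.

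None of these 8 calls held in all 6 fits without a library. The number called was 0 without cis-3-hexenol 3, 1 without cis-3-hexenol 1, 5 without cis-3-hexenol 2, and 3 without OC control 1 or OC control 3. Over all genes those fits called 533, 1222, 1140, 1469 and 1498 in the same order, against 2341 with all 12 libraries. The gamma A and B sum was 42.5, 35.3 and 41.4 CPM and so lay above every control library. Pcdhgc3 (17.3 ± 2.6 CPM), Pcdhac2 (18.3 ± 1.6 CPM) and Pcdhac1 (3.59 ± 0.73 CPM) did not pass the test.

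The OC mixture had 10 of 53 genes called (18.9%, background 24.2%), 9 of them higher (background 11.5%) and 1 lower (background 12.7%). Groups did not overlap for 14 genes with the mixture the higher and 2 with it the lower, beside 16.7% and 18.0% of all genes. Pcdhb1 stood at 22.2, 18.0 and 22.2 CPM (0.88 ± 0.16, adjusted p = 0.00133), Pcdhb11 had a log2 fold change of 1.30 ± 0.28 (adjusted p = 0.00393) and Pcdhga1 one of 2.18 ± 0.52 (adjusted p = 0.00723). These 3 calls held without any 1 library, and the other 7 did not. For Pcdhga1 the control levels rest on few counts, with 5 as its lowest over the 12 OC libraries. Those higher among the 7 were Pcdhga6 (1.41 ± 0.40), Pcdhb7 (0.52 ± 0.15), Pcdhgb6 (0.75 ± 0.24), Pcdhga7 (0.89 ± 0.29), Pcdhgb1 (1.00 ± 0.34) and Pcdhgb5 (1.00 ± 0.35), with adjusted p between 0.0188 and 0.0479. Pcdha9 was lower, at 4.80, 4.79 and 4.82 CPM against 6.56, 5.24 and 9.53 CPM (-0.56 ± 0.19, adjusted p = 0.0466), and was lost without OC control 3 (-0.30, adjusted p = 0.251). The number called was 5 without OC control 1, 5 without OC mixture 1 and 4 without OC mixture 3. Over all genes those fits called 3860, 3035 and 3424, against 4647 with all 12 libraries. None of the 4 C-type genes tested was called.

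Octanal set directly against cis-3-hexenol gave 0 of 53 genes at an adjusted p of 0.05 with edgeR (background 0%). The DESeq2 Wald test also gave 0 of 53, beside 236 of all 19162 genes. A fit of the 6 libraries compared gave 0 of 53, beside 803 of all 18373 genes. An unadjusted p under 0.05 was found for 4 of the 53, beside 13.0% of all genes. With no low-count filter 1 of the 58 was called, beside 581 of all 32796 genes. The smallest p values were those of Pcdhga1 (1.60 ± 0.50, adjusted p = 0.219), Pcdhb12 (-0.76 ± 0.25, adjusted p = 0.226) and Pcdha8 (-1.30 ± 0.51, adjusted p = 0.297). For Pcdhb1 the difference was 0.32 with a 95% confidence interval from -0.0021 to 0.65, and for Pcdhgc4 it was 0.02 with an interval from -0.13 to 0.18.

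**Figure D4:**
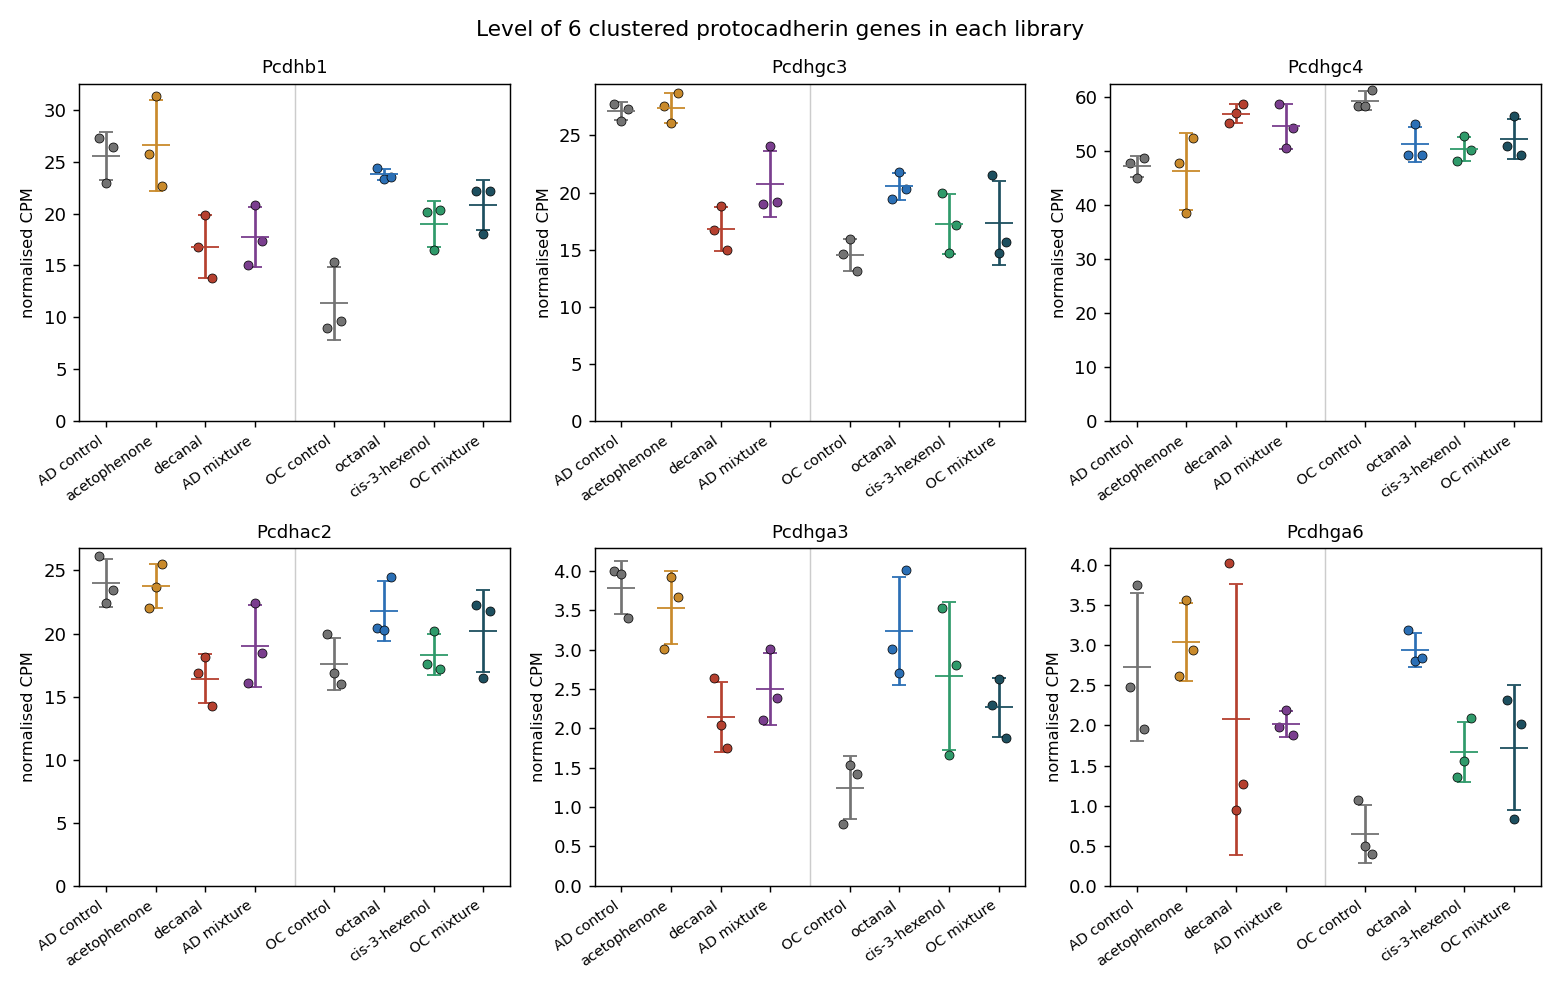
Level, in CPM, of Pcdhb1, Pcdhgc3, Pcdhgc4, Pcdhac2, Pcdhga3 and Pcdhga6 in each of the 24 libraries, with the group mean (bar) and 1 SD (whiskers, n = 3). Pcdhb1, Pcdhgc3 and Pcdhga3 are lower with decanal than in AD control and higher with octanal than in OC control, and Pcdhgc4 lies the other way in both tables.

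Pcdhgc4, a C-type gene that neurons need for survival in other tissues, was called in the direction opposite to the other called gamma genes with decanal, octanal and cis-3-hexenol. Among all gamma genes tested, 7 of 22 had a positive log2 fold change with decanal, and 2 of 20 with octanal and 3 of 20 with cis-3-hexenol a negative one, Pcdhgc4 included. It was at 47.8, 45.0 and 48.6 CPM in AD control and at 55.1, 56.9 and 58.6 CPM with decanal (0.27 ± 0.09, adjusted p = 0.0401). In the OC table it was at 58.2, 58.4 and 61.3 CPM in the controls and at 49.3, 54.9 and 49.3 CPM with octanal (-0.21 ± 0.07, adjusted p = 0.0416), and it was lower with cis-3-hexenol (-0.24 ± 0.07, adjusted p = 0.0499). The groups did not overlap in any of these 3 comparisons.

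These calls were close to the threshold. With decanal the call of Pcdhgc4 was lost without any 1 of the 6 libraries, with adjusted p from 0.0717 to 0.155, while offsets for length and GC moved it to 0.38 (adjusted p = 0.0120). With octanal it held without octanal 2 alone, and the offsets for length and GC moved it to -0.13 (adjusted p = 0.240). With cis-3-hexenol it was lost without any 1 library and moved to -0.11 (adjusted p = 0.396) with the offsets. As a share of all gamma counts, Pcdhgc4 took 35.7% ± 0.7 (SD, n = 3) in AD control, 48.3% ± 4.2 with decanal and 45.8% ± 4.2 with the AD mixture. It took 59.8% ± 2.6 in OC control, 42.6% ± 1.7 with octanal, 46.9% ± 4.0 with cis-3-hexenol and 46.9% ± 4.8 with the OC mixture. One annotated coding transcript of Pcdhgc4 has 2272 bases, of which 2119 lie in exons shared with other gamma genes, and how far reads from those exons entered its value was not tested.

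Genes called with decanal and with octanal, which share no library, overlapped in 5 genes: Pcdhb1, Pcdhgc3, Pcdhgc4, Pcdhga3 and Pcdhga10. They were 71.4% of the 7 called with decanal and 26.3% of the 19 called with octanal, and all 5 had opposite directions with the 2 aldehydes. Over all genes, 2574 were called in both comparisons, 55.2% and 45.6% of those called in each, and 98.6% of these had opposite directions, so opposite directions were not particular to protocadherins. The AD mixture and octanal shared 3 called genes (50.0% of 6 and 15.8% of 19), also opposite in direction, as were 97.2% of the 2360 genes shared over all genes (54.3% and 41.8%). Decanal and octanal belong to separate tables with separate controls, so a difference between the aldehydes and a difference between the tables cannot be told apart. Between the controls themselves, Pcdhb1 was at 25.6 ± 2.3 CPM in AD control and 11.3 ± 3.5 in OC control, and the gamma A and B sum at 57.2 and 24.9 CPM. With octanal those levels were 23.8 ± 0.6 and 48.1 ± 2.0. Over the 6 comparisons with a control, 25 of the 56 genes tested were called at least once. They were 15 of 22 gamma, 6 of 20 beta and 4 of 14 alpha genes tested. Over all genes tested in either table, 9300 of 19685 (47.2%) were called at least once.

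Factors known to act on the clusters were read from lists of named genes, whose counts stand beside these shares of all genes called higher and lower: 11.4% and 12.5% with decanal, 10.6% and 11.6% with the AD mixture, 14.4% and 15.0% with octanal, 5.56% and 6.65% with cis-3-hexenol, and 11.5% and 12.7% with the OC mixture. Of 13 CTCF, cohesin and loop factors, 2 were higher and 4 lower with octanal, 1 and 4 with cis-3-hexenol and 0 and 4 with the OC mixture. Ctcf, which binds the promoters and enhancers of the clusters, was lower with octanal (-0.30 ± 0.09, adjusted p = 0.0182), cis-3-hexenol (-0.35 ± 0.09, adjusted p = 0.0210) and the OC mixture (-0.29 ± 0.09, adjusted p = 0.0260). Rad21, a cohesin subunit, was lower as well (-0.42 ± 0.09, -0.30 ± 0.09 and -0.44 ± 0.09 in the same order, adjusted p = 0.00278, 0.0439 and 0.00281), as was the cohesin loader Nipbl (-0.51 ± 0.12, -0.42 ± 0.12 and -0.55 ± 0.12). Among the AD libraries, 1 gene was higher and 4 lower with decanal and 0 and 5 with the AD mixture, among them the cohesin subunits Stag2 (-0.30 ± 0.06 and -0.33 ± 0.06) and Smc3 (-0.27 ± 0.05 and -0.17 ± 0.05). Ctcf (0.12 ± 0.05, adjusted p = 0.0965) and Rad21 (-0.04 ± 0.06, adjusted p = 0.731) were not called with decanal.

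Beside the same shares of all genes, of 16 genes of DNA methylation and chromatin silencing 3 were higher and 4 lower with decanal, 2 and 5 with the AD mixture, 4 and 5 with octanal, 0 and 5 with cis-3-hexenol and 2 and 7 with the OC mixture. Dnmt3b, the methyltransferase known to act on variable promoters, was not called in any comparison (2.89 CPM in AD control, 2.74 in OC control), and neither was Smchd1, a silencer of the clusters (48.8 and 40.02 CPM). Tet3, which oxidises methylated cytosine, was lower with octanal (-0.75 ± 0.11, adjusted p = 0.000300) and Dnmt3a was lower too (-0.54 ± 0.09). With decanal Wiz (-0.40 ± 0.07) and Dnmt1 (-0.43 ± 0.09) were lower.

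The cytoplasmic partners of clustered protocadherins include the WAVE complex, which drives actin branching, and the kinases that bind the shared tail. Of 17 such genes, beside 11.4% of all genes higher and 12.5% lower with decanal and 14.4% and 15.0% with octanal, 1 was higher and 10 lower with decanal, 2 and 8 with the AD mixture, 8 and 1 with octanal, 3 and 0 with cis-3-hexenol and 7 and 2 with the OC mixture. The WAVE subunits Nckap1 (-0.73 ± 0.06, adjusted p = 1.5e-06), Cyfip1 (-0.67 ± 0.06) and Cyfip2 (-0.53 ± 0.05) led the fall with decanal. Nckap1 (0.72 ± 0.09, adjusted p = 0.000110) and Cyfip1 (0.65 ± 0.09) were higher with octanal. Of 7 proteases that cleave protocadherins, 1 was higher and 3 lower with decanal, 1 and 1 with the AD mixture and 3 and 1 with octanal. With cis-3-hexenol and with the OC mixture 2 were higher and 0 lower. No gene of the lists in this and the preceding paragraphs was called with acetophenone.

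Protocadherin genes outside the clusters were counted in the same way, beside the same shares of all genes. Of the 12 listed, 3 were higher and 0 lower with decanal, 1 and 0 with the AD mixture, and of 11 tested in the OC table there were 3 and 4 with octanal, 1 and 3 with cis-3-hexenol and 1 and 4 with the OC mixture. Pcdh10 was higher in 5 comparisons, with log2 fold changes of 0.64 ± 0.20 with decanal, 0.92 ± 0.20 with the AD mixture, 1.12 ± 0.27 with octanal, 0.93 ± 0.27 with cis-3-hexenol and 1.54 ± 0.26 with the OC mixture. Pcdh19 was lower with octanal (-0.55 ± 0.08), cis-3-hexenol (-0.44 ± 0.08) and the OC mixture (-0.68 ± 0.08).

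Markers of other cells and of RNA makeup moved in the same comparisons. Their counts stand beside 11.4% of all genes called higher and 12.5% lower with decanal, and 14.4% and 15.0% with octanal. All 7 red cell markers were higher with decanal, with a summed level of 2150 to 2587 CPM against 495 to 652 CPM in AD control, and all 7 were lower with octanal, at 748 to 1128 CPM against 2168 to 4495 CPM in OC control. Of 9 neutrophil and marrow markers 8 were higher with decanal and 8 lower with octanal. Their summed level overlapped with decanal (311 to 455 CPM against 181 to 624 CPM in AD control). With octanal it did not (165 to 269 CPM against 287 to 454 CPM in OC control). Of 10 bone and stroma markers 4 were higher with decanal and 7 lower with octanal. Of 15 mature sensory neuron markers 1 was higher and 7 lower with decanal, and 7 were higher and 3 lower with octanal, while their summed level overlapped between groups (20581 to 22664 CPM with decanal, 21126 to 22645 in AD control). For 11 immature neuron markers the counts were 2 and 1 with decanal and 1 and 5 with octanal. In the same order they were 2 and 3, then 3 and 1 for 8 sustentacular markers, and 1 and 0, then 0 and 1 for 10 basal cell markers. They were 0 and 0, then 0 and 5 for 9 ensheathing and Schwann cell markers, and 1 and 0, then 0 and 3 for 9 endothelial and mural markers. Mitochondrial transcripts took 0.26% ± 0.02 of counts in AD control, 0.30% ± 0.03 with acetophenone, 0.77% ± 0.02 with decanal, 0.81% ± 0.07 with the AD mixture, 0.79% ± 0.17 in OC control, 0.42% ± 0.04 with octanal, 0.78% ± 0.04 with cis-3-hexenol and 0.69% ± 0.19 with the OC mixture. Of 11 markers of the olfactory bulb and central neurons, 10 were tested in each table. Of these 0 were called with decanal (787 to 905 CPM against 935 to 997). With octanal 1 was higher and 3 lower (924 to 992 CPM against 732 to 888), with Slc32a1 at 0 CPM in OC control. The part of any of these in the protocadherin results was not tested, and in bulk RNA fewer cells of a type and less RNA per cell cannot be told apart.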

How the data were processed

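The authors deposited expected counts per Ensembl gene, 1 table of 12 libraries for each of the AD and OC conditions named in the sample titles. The submitters' processing notes name STAR 2.7.10b, Salmon 1.10.1, R 4.4.2 and the mouse build GRCm39, with no role given, and the annotation release is not given in the sources used here. Symbols and transcript lengths came from GENCODE M21 (build GRCm38) by Ensembl ID, which named 52029 of 57010 IDs. IDs without a name held 0.313% (AD) and 0.321% (OC) of counts. No coordinates are given, because the builds differ.

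Counts were rounded to whole numbers and tested with edgeR 4.0.16 in R 4.3.3 (filterByExpr, TMM scaling, quasi-likelihood F-test, two-sided), with 1 fit per table over its 12 libraries and 4 groups. Benjamini-Hochberg adjustment ran over all 19525 (AD) or 19175 (OC) genes tested, and a gene was called at an adjusted p under 0.05. Standard errors were obtained from the estimate and its F statistic. The fit was tested on simulated counts with known changes.

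Named were up to 8 called genes per comparison by smallest p with a mean count of at least 20, or 3 genes of smallest p where fewer than 3 were called, the 3 highest and 3 lowest genes of each cluster per length, the 5 C-type genes, up to 3 called genes per list, and Ctcf, Rad21, Smchd1 and Dnmt3b. Further called genes, and values of a listed gene in other comparisons, were named after their values were seen. The genes, lists and comparisons were chosen with earlier results of these data known.

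Alternatives were DESeq2 size factors, the DESeq2 1.42.0 Wald test, no filter, a filter of 1 CPM in 3 libraries, a robust fit, a replicate block, loess offsets for length and GC (span 0.3), both together, the 6 libraries compared, and leaving out each library. The labels call the replicates biological, and p-values measure the spread between these samples.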

Additional observations from a re-analysis of the deposited data

How the results depend on the processing

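No called protocadherin named by the rule of smallest p, or as a C-type gene, changed direction under any alternative run. The further called genes and the genes of the lists were not part of this check. DESeq2 size factors, the filter of 1 CPM, the robust fit and the DESeq2 Wald test left the number of genes called within 1.5 times the reported number in all 8 comparisons. Without the low-count filter the number was 1 with acetophenone, 11 with the AD mixture, 11 for decanal against acetophenone and 1 for octanal against cis-3-hexenol. In the same order it was 300, 4722, 5630 and 581 over all 33134 (AD) or 32796 (OC) genes. The reported fits called 1, 4347, 5279 and 0 over all genes. Offsets for length and GC gave 3 with the AD mixture and 5 with cis-3-hexenol. Over all genes they gave 3084 and 1113, against 4347 and 2341 in the reported fits. A fit of the 6 libraries compared gave 1 with cis-3-hexenol and 5 with the OC mixture, beside 1047 and 2816 over all genes. The replicate block gave 2 with cis-3-hexenol, and the replicate block with length and GC offsets gave 1. Over all genes these 2 fits gave 1883 and 708. Same-numbered libraries were not paired: over 24 pairs the correlation of their deviations ran from -0.19 to 0.24, and in 0 comparisons was every pair above 0.1. Leaving out each library in turn gave 0 with acetophenone and for octanal against cis-3-hexenol, 5 to 8 with decanal, 2 to 4 with the AD mixture, 3 to 8 for decanal against acetophenone, 13 to 18 with octanal, 0 to 9 with cis-3-hexenol and 4 to 10 with the OC mixture. Over all genes the fits without a library called 0 to 39 with acetophenone and 0 to 1 for octanal against cis-3-hexenol. They called 3391 to 4145 with decanal, 3087 to 4207 with the AD mixture and 3993 to 4694 for decanal against acetophenone. In the OC table they called 4054 to 5764 with octanal, 533 to 3150 with cis-3-hexenol and 3035 to 4960 with the OC mixture. The cause of these shifts was not tested. Of the 58 genes, 2 in the AD table and 5 in the OC table had too few counts to be tested.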
